A study of Homo sapiens with 6 samples.

Results

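A set of 7 genes, tumour suppressors and close neighbours that are often lost in bladder cancer was examined for plasminogen activator inhibitor-1 (PAI-1) chromatin immunoprecipitation sequencing (ChIP-seq) peaks. The rule that lists them is by name and uses no measured value, but the members were chosen with earlier results of these data known. They were 7 of the 20090 protein-coding genes on chromosomes 1 to 22 and X. CDKN2A, CDKN2B, MTAP and DMRTA1 are neighbours at 9p21, ATAD1 is at 10q23, RB1 at 13q14 and TSC1 at 9q34, so the 7 genes formed 4 loci on 3 chromosomes. For each gene the peaks in its body were listed, peaks were counted in 100 kb bins over the locus and 2 Mb on both sides, and the longest stretch without a peak that overlapped the gene was measured. Loss of these genes was the reason for looking at such stretches, but DNA copy number was not measured. Lost DNA and intact DNA without a called peak cannot be told apart in a peak list.

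The data came from RT112 and UM-UC-3, established human bladder cancer cell lines that were cultured without a treatment named in the labels. Chromatin from nuclear extracts was precipitated with an antibody against PAI-1 (clone 3F2), a secreted inhibitor of plasminogen activators. Each cell line had 2 ChIP libraries, labelled as biological replicates, and 1 input library. The 4 ChIP libraries had a peak list, and the 2 input libraries were not analysed here. Each cell line is a single line, so the replicates measure the spread within a line and not between tumours.

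CDKN2A encodes the cyclin-dependent kinase inhibitor p16INK4a and, from another reading frame, the separate protein ARF. CDKN2B encodes the related inhibitor p15INK4b. Both inhibitors hold back CDK4 and CDK6, which otherwise phosphorylate the product of RB1, the protein that restrains E2F transcription factors. MTAP encodes methylthioadenosine phosphorylase, the first enzyme of methionine salvage, and is often deleted together with CDKN2A. DMRTA1 encodes a DM domain transcription factor. ATAD1 encodes an ATPase that removes misplaced tail-anchored proteins from the outer mitochondrial membrane. TSC1 encodes hamartin, which with the product of TSC2 inhibits mTORC1.

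Replicates 1 and 2 had 96412 and 60220 peaks in RT112, against 109278 and 114085 in UM-UC-3. Per Mb this made 34 and 21.2 peaks in the RT112 libraries against 38.5 and 40.2 in the UM-UC-3 libraries. Peak densities below are therefore also given relative to the density of the whole library, where 1 is the library average. The read depth of each library is unknown. The score of a peak is the peak caller's -log10 value (a p-value or a q-value), with medians of 3.8 to 4.09 over whole libraries. Coordinates are on GRCh37 (hg19) and counted from 1.

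In RT112 no peak of either replicate lay in any of the 4 genes at 9p21, and the stretch without peaks that held them was the longest in the cell line. It spanned chr9:21778238-23468096 and was 1.69 Mb long, rank 1 of the 119959 peak-free stretches of RT112. MTAP (chr9:21802635-21937650, plus strand), CDKN2A (chr9:21967751-21995300, minus strand), CDKN2B (chr9:22002902-22009304, minus strand) and DMRTA1 (chr9:22446823-22455739, plus strand) lay wholly inside. They were the 4 protein-coding genes in it. In the same interval UM-UC-3 had 65 peaks in replicate 1 and 69 in replicate 2, which was 0.998 and 1.01 of the library average. The interval thus held peaks at an ordinary density in one cell line and no peak in both libraries of the other.

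By its definition the stretch is free of peaks in each RT112 replicate, so each replicate alone could only give an equal or longer one. Replicate 1 had no peak over 1754 kb and replicate 2 none over 1846 kb, a mean of 1800 ± 65.1 kb (SD, n = 2). The last peak before it was at chr9:21777868-21778237 (score 3.8) in replicate 1 and at chr9:21621583-21621817 (score 4.27) in replicate 2. The first peak after it was at chr9:23532167-23532445 (score 2.76) in replicate 1 and at chr9:23468097-23468327 (score 2.97) in replicate 2. The 2 peaks after the stretch scored below the library medians of 3.8 and 4.09, the replicate 1 peak before it at the median and the replicate 2 peak before it above. The replicate 2 peak before the stretch was also called in replicate 1, and the other bounding peaks in 1 replicate only. The nearest protein-coding genes outside were IFNE, an interferon gene 296 kb before the stretch, and ELAVL2, a neuronal RNA-binding protein gene 222 kb after it. The peaks of replicate 1 before the stretch and of replicate 2 after it set the interval free of peaks in both libraries. Their plus-strand reference sequences are given 5′ to 3′, with the longest run of purines only or pyrimidines only in capitals; of the first, the 300 bases of chr9:21777938-21778237 are shown.
Peak before the stretch: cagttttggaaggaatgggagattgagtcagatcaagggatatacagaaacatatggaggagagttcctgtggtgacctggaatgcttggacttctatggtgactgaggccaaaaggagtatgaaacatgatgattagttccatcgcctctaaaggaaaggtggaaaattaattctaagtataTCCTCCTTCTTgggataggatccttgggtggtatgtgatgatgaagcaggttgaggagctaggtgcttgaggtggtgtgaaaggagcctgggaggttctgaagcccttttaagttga
Peak after the stretch: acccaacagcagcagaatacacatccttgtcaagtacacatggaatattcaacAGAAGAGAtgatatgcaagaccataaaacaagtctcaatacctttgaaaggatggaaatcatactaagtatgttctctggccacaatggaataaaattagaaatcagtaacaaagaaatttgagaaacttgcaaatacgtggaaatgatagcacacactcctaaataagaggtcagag

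**Figure D1:**
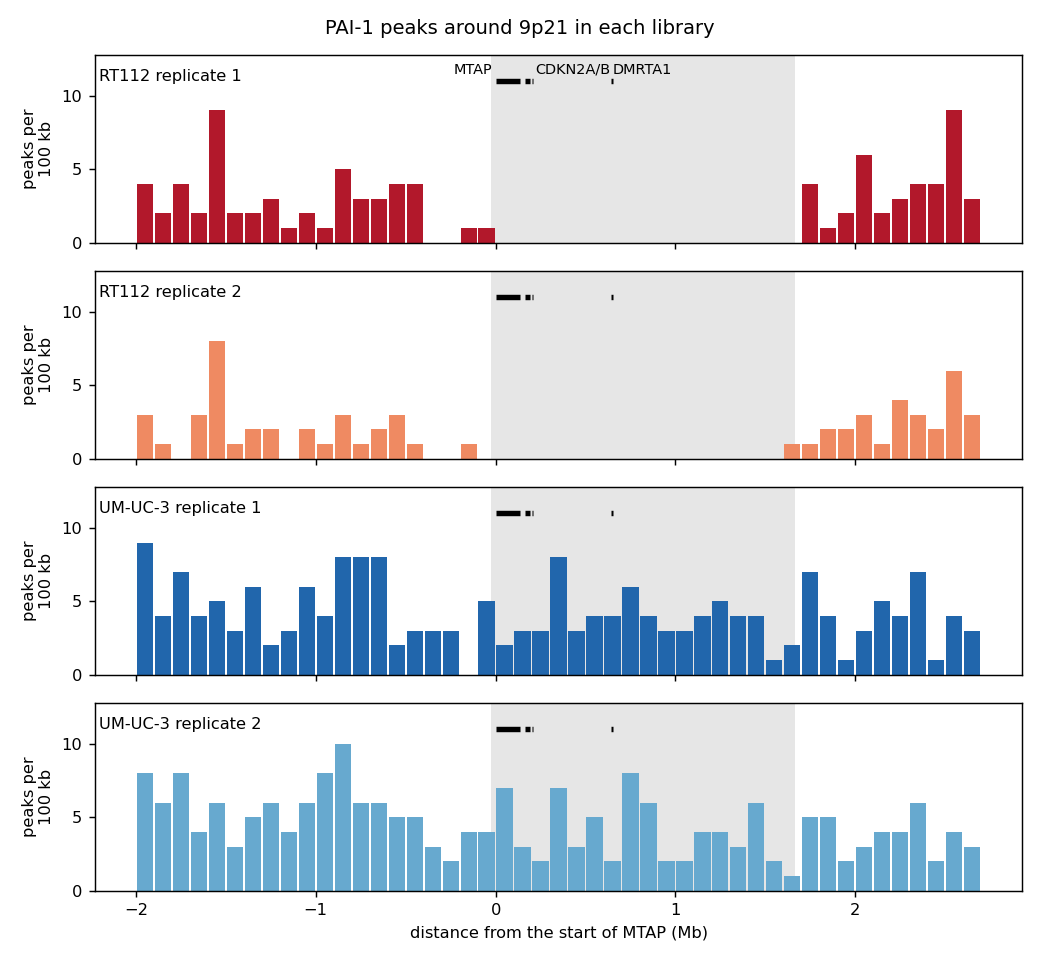
Peaks per 100 kb bin (vertical axis) against the distance in Mb from the start of MTAP (horizontal axis), with 1 panel for each library; black bars mark the genes and grey the RT112 stretch of 1.69 Mb. Both RT112 libraries have 17 neighbouring bins without a peak, while the UM-UC-3 libraries have 65 and 69 peaks in the grey interval.

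Windows of the same length elsewhere could not be empty in RT112, since no other stretch was as long. The counts of 0 below restate that rank, and the medians and lowest values describe the other windows. Of 60 windows of 1.69 Mb tiled end to end along chromosome 9, 0 were without a peak region of RT112; the median was 75 regions and the lowest 28. Of 1589 such windows over all the chromosomes counted, 0 were empty, with a median of 72 regions and a lowest value of 7. The stretch had no unresolved base in the reference (0 N) and a GC content of 36.9%, against 41.3% for chromosome 9. The part of GC content in the result was not tested; the UM-UC-3 peaks were counted over the same bases.

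The 100 kb bins counted the same peaks at finer scale. The empty RT112 bins therefore largely restate the stretch, and their share and the runs elsewhere describe its surroundings. Over the 47 bins at 9p21, RT112 replicate 1 had 19 bins without a peak (40.4%) and replicate 2 had 21 (44.7%). Over all 28224 bins the shares were 7.95% and 17.7%. The longest run of empty bins at 9p21 was 17 in both RT112 libraries, and the longest run elsewhere was 12 in replicate 1 and 15 in replicate 2, both on chromosome 5. UM-UC-3 had 1 and 0 empty bins of 47, against 4.55% and 4.32% of all bins.

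Outside the stretch, RT112 peaks came back on both sides. Over 1.98 Mb before it, RT112 replicates 1 and 2 had 53 and 34 peaks, 0.789 and 0.81 of the library average. UM-UC-3 had 1.2 and 1.35 of its average there, so RT112 was lower than UM-UC-3 over this flank as well. Over 0.988 Mb after it the RT112 replicates had 38 and 28 peaks, 1.13 and 1.33 of the average, beside 0.998 and 0.931 in UM-UC-3. The return was not equally sharp on both sides: in the last 400 kb before the stretch RT112 had 3 and 1 peaks and UM-UC-3 10 and 12, while in the first 400 kb after it RT112 had 8 and 7 and UM-UC-3 12 and 13. The sparse part before the stretch holds the end of the type I interferon cluster, where IFNA8, IFNA1 and IFNE shared a peak-free stretch of 230.4 kb in RT112.

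Taken over the locus and 2 Mb on both sides, the relative density at 9p21 was 0.601 ± 0.0369 in RT112 against 1.11 ± 0.0395 in UM-UC-3 (SD, n = 2 each). Their difference of 0.509 (UM-UC-3 minus RT112) was many times the SD of either line, and the libraries of the 2 lines did not overlap. The libraries did not overlap around RB1 and TSC1 either, where RT112 was the higher line. Lack of overlap is thus not particular to 9p21. The window at 9p21 includes the whole peak-free stretch of RT112, so its density difference in part restates that stretch. An exact permutation test of 2 libraries against 2 gave a two-sided p = 0.333, which is the smallest it can give, so no locus could pass a threshold in this design.

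Of the 7 genes, 4 overlapped a stretch of at least 500 kb without a peak in RT112, all of them in the single stretch at 9p21. The background was 0.826% of the 20090 protein-coding genes. The 4 genes are neighbours and count as 1 event. In UM-UC-3, 0 of 7 did, against a background of 0.219%. RT112 had 13 stretches of at least 500 kb, of which 9 did not end at an assembly gap, and UM-UC-3 had 7, of which 3 did not. In 12 of the 13 RT112 stretches the other cell line was sparse as well, at or below 0.233 of its average; the next longest, chr5:69379347-70672651 (1293 kb), held 7 and 6 UM-UC-3 peaks, 0.128 of the library average. The stretch at 9p21 was the only one of these in either line in which the other cell line was near its average.

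**Figure D2:**
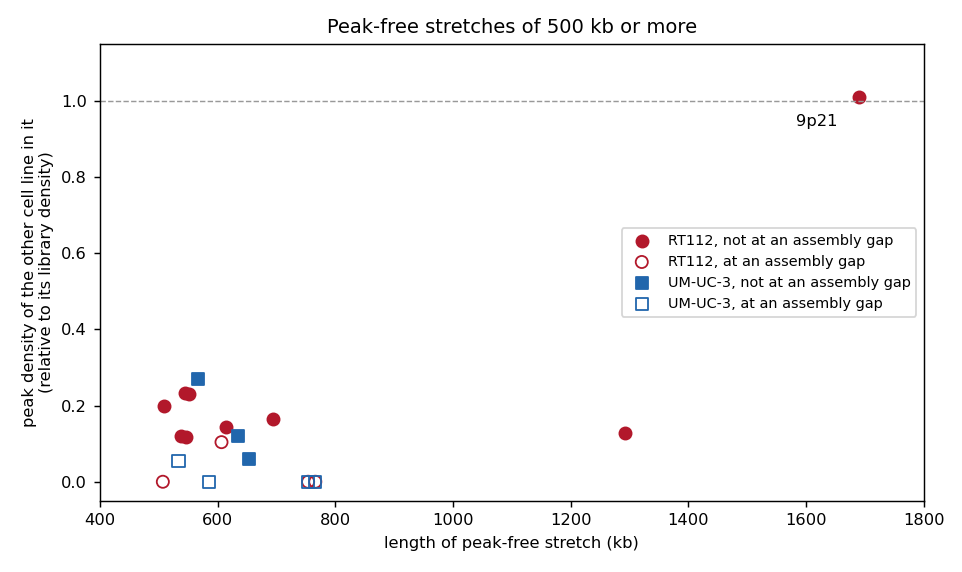
Every peak-free stretch of at least 500 kb, by its length in kb (horizontal axis) and the peak density of the other cell line in it relative to that line's library average (vertical axis, mean of 2 replicates); the dashed line marks the average. The RT112 stretch at 9p21 lies alone at 1690 kb and 1.01, and all the other points are at or below 0.27.

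MTAP was the 9p21 member with most peaks in UM-UC-3. It had 0 and 0 peaks in the RT112 libraries, against 2 and 8 in UM-UC-3 replicates 1 and 2. The UM-UC-3 replicates thus differed by more at MTAP than their library densities did, with 0.384 and 1.47 of the library average. Both peaks of replicate 1 were found again in replicate 2, at 2.1 kb and 27.5 kb from the transcription start site, and 6 peaks were called in replicate 2 only, with scores up to 8.05. All 10 MTAP peaks were intronic. The GENCODE model of MTAP includes transcripts that run past the end of the canonical one, and within the canonical transcript (chr9:21802635-21867080) the counts were 2 and 5. The shared peak with the highest scores was at chr9:21830054-21830277, with a score of 2.64 in replicate 1 and 6.57 in replicate 2. Its plus-strand sequence is shown as an example of intronic MTAP DNA that was called in both UM-UC-3 libraries and in neither RT112 library, again with the longest purine or pyrimidine run in capitals.
MTAP intron peak: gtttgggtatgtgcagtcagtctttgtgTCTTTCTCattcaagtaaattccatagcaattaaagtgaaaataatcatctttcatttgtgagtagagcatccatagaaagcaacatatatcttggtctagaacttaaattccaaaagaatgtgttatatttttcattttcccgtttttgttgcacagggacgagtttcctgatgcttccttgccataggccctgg

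CDKN2A had 0 and 0 peaks in RT112 against 1 and 1 in UM-UC-3. The UM-UC-3 peaks were different ones: replicate 1 had chr9:21981862-21982081 (score 3.88) and replicate 2 had chr9:21980068-21980309 (score 3.85), both intronic. Each UM-UC-3 library thus had a CDKN2A peak, but not at the same place. Both lie upstream of the canonical p16INK4a transcript (chr9:21967751-21974856), in the intron of the longer transcripts that include ARF, so the canonical transcript had 0 peaks in all 4 libraries. Among 2393 genes of like length (within a factor of 0.8 or its reciprocal), 44.7% had a peak in each UM-UC-3 library and 27.5% in each RT112 library.

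CDKN2B and DMRTA1 had no peak in any library, which is common for genes of their length. Of 1399 genes as long as CDKN2B, 9.72% had a peak in each UM-UC-3 library and 5.22% in each RT112 library; for DMRTA1 the shares were 13% and 7.42% of 1726 genes. What set the cell lines apart at these short genes was the distance to the nearest peak. For CDKN2B it was 20.8 and 22.6 kb in UM-UC-3 and 225 and 381 kb in RT112. For DMRTA1 it was 3.85 kb in both UM-UC-3 libraries and 669 and 825 kb in RT112. The UM-UC-3 peak next to DMRTA1, chr9:22459587-22459805, had scores of 9.65 and 9.6.

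In UM-UC-3 the longest peak-free stretch over CDKN2A and CDKN2B was chr9:21982082-22045727, 63.65 kb long. Stretches at least as long overlapped 39.9% of the genes of like length to CDKN2A, and 7.03% of windows of that length were empty in UM-UC-3. The stretch differed between the replicates, at 63.65 kb in replicate 1 and 101.4 kb in replicate 2 (82.53 ± 26.7 kb, SD, n = 2). It covered all of CDKN2B and the 5′ part of CDKN2A. The stretch over MTAP was 45.43 kb and that over DMRTA1 22.98 kb, both under the medians of 60.6 and 53 kb for genes of like length. Within CDKN2B-AS1 (chr9:21994138-22128102), the antisense RNA gene that overlaps both inhibitors, UM-UC-3 had 5 and 4 peaks, of which 3 were found in both replicates.

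The UM-UC-3 peaks within the RT112 stretch were compared between the replicates. In replicate 1, 39 of 65 (60%) were called again in replicate 2, and the share of replicate 2 was 39 of 69 (56.5%), beside 74.9% and 71.7% over whole libraries. Their median scores, 3.88 and 3.85, were those of the whole libraries. Between CDKN2B and DMRTA1 the shares were 70% of 20 peaks and 82.4% of 17, and between DMRTA1 and the end of the stretch 52.6% of 38 and 50% of 40. These shares are descriptions without a test.

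**Figure D3:**
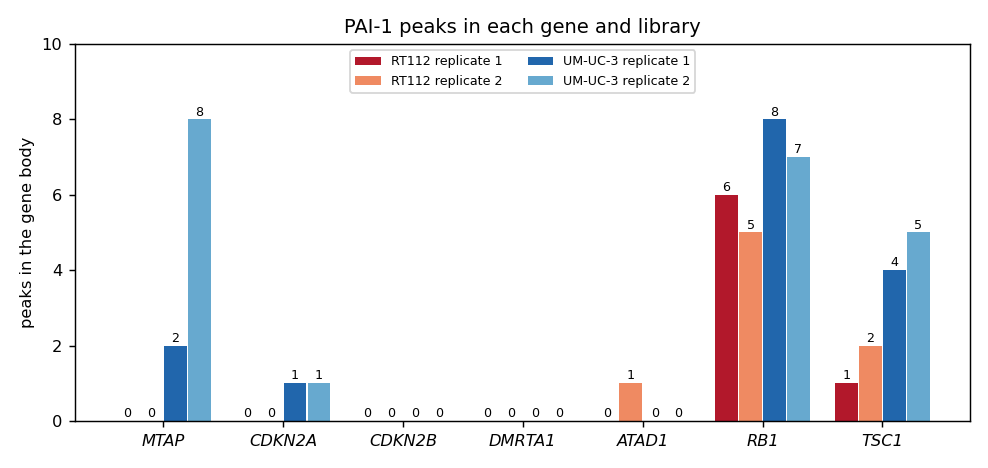
Number of peaks in the body of each gene (vertical axis) in the 4 libraries, printed above each bar. The 4 genes at 9p21 have 0 peaks in both RT112 libraries, CDKN2B and DMRTA1 have 0 in all, and RB1 has 5 to 8 in every library.

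Over all 7 genes, RB1 and TSC1 had a peak in both RT112 replicates (2 of 7, against a background of 36.8% of protein-coding genes), and MTAP, CDKN2A, RB1 and TSC1 in both UM-UC-3 replicates (4 of 7, against 48.8%). Counted by library, 2, 3, 4 and 4 genes had a peak in RT112 replicates 1 and 2 and UM-UC-3 replicates 1 and 2. Within canonical transcripts the counts were 2 of 7 in RT112 (background 33.8%) and 3 of 7 in UM-UC-3 (background 45.8%), CDKN2A being the gene that dropped out. Shares of so few genes, of very different length, are close to the background and say nothing about the set.

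RB1 (chr13:48877880-49173572, plus strand) had peaks in every library, with 6 and 5 in RT112 against 8 and 7 in UM-UC-3. All 26 RB1 peaks were intronic in this gene model. The span of RB1 depends on the transcript: 1 protein-coding transcript in the annotation runs far past the end of the canonical one (chr13:48877887-49056026) and over the neighbour RCBTB2. Within the canonical transcript RT112 had 2 and 2 peaks and UM-UC-3 5 and 3. The UM-UC-3 libraries hold more peaks in total, and how many genes differ in this way was not counted. Over the long span the densities relative to the library were 0.597 and 0.796 in RT112 against 0.702 and 0.588 in UM-UC-3, which overlap. The gene had fewer peaks than most of its length. Among 925 genes whose canonical transcript is of like length the median was 4.5 peaks per library in RT112 against 6.5 in UM-UC-3, and for the long span, among 578 genes, it was 8 against 11.5.

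No RB1 peak of one cell line overlapped a peak of the other (0 of 26). Over whole libraries such overlaps were rare as well, from 5.91% to 7.73% of peaks. In each RT112 library 4 of the RB1 peaks were found in the other replicate, and in each UM-UC-3 library 5. Within the canonical transcript the shared RT112 peak with the highest scores was chr13:49048203-49048461 (7.43 and 6.56 in replicates 1 and 2), 170 kb from the start site. Its plus-strand sequence is shown because both RT112 libraries called it and neither UM-UC-3 library did. Capitals mark the longest pyrimidine run, 15 bases, beside a median of 11 over whole libraries.
RB1 intron peak in RT112: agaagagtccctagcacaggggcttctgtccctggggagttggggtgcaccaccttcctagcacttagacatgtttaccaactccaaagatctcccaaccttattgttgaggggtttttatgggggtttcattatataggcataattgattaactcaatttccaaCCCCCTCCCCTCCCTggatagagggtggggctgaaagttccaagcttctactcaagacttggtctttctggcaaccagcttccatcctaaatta

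The highest scores in the RB1 model lay beyond the canonical transcript. In RT112 they belonged to chr13:49105697-49105972, with 14.6 in replicate 1 and 10.5 in replicate 2, which is also inside RCBTB2. In UM-UC-3 they belonged to chr13:49161056-49161434, with 27.6 and 29.5, the highest of all peaks in the 7 gene models. A UM-UC-3 peak between these, chr13:49123501-49123971, had scores of 12.9 and 12.9 and held a run of 39 bases of purines only or pyrimidines only. Runs of at least 39 bases were present in 0.636% and 0.674% of the UM-UC-3 peaks.

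The longest stretch without a peak over RB1 was chr13:48929259-49048202 in RT112 (118.9 kb) and chr13:48966461-49113776 in UM-UC-3 (147.3 kb), both within the long RB1 model. In the UM-UC-3 stretch RT112 had 3 and 3 peaks, and in the RT112 stretch UM-UC-3 had 1 and 1. UM-UC-3 replicates 1 and 2 alone, which by definition could not give a shorter stretch, gave 157 and 147.3 kb (152.2 ± 6.86 kb, SD, n = 2). Of windows of that length 0.92% were empty in UM-UC-3, and on chromosome 13 it was 1 of 644. For a gene as long as the long RB1 model this was less rare, since 4.33% of genes of like length overlapped a stretch at least as long. The RT112 stretch was matched by 19.7% of these genes. Such shares were not computed for the shorter canonical transcript. Neither reached 500 kb. The UM-UC-3 stretch covered the 3′ part of the canonical RB1 transcript and all of RCBTB2, a neighbour that encodes a protein with RCC1 and BTB domains.

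Around 13q14 the relative density was 1.03 ± 0.0199 in RT112 against 0.824 ± 0.15 in UM-UC-3 (SD, n = 2 each). The difference of -0.21 (UM-UC-3 minus RT112) rested largely on UM-UC-3 replicate 2, at 0.717 against 0.93 in replicate 1, and was little more than the SD of UM-UC-3 (two-sided exact permutation p = 0.333, again the lowest value 2 against 2 can give). Empty bins numbered 0 and 5 of 43 in RT112 against 1 and 3 in UM-UC-3. LPAR6, a lysophosphatidic acid receptor gene inside an RB1 intron, overlapped the stretches of both lines.

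TSC1 (chr9:135766735-135822261, minus strand) had 1 and 2 peaks in RT112 against 4 and 5 in UM-UC-3. Among 2255 genes of like length the median was 1 peak per library in RT112 against 1.5 in UM-UC-3. The UM-UC-3 libraries hold more peaks in total, and how many genes differ in this way was not counted. The relative densities over the gene were 0.53 and 1.7 in RT112 against 1.87 and 2.24 in UM-UC-3. All 4 peaks of UM-UC-3 replicate 1 were found in replicate 2, as were both at MTAP. Of the replicate 2 peaks, 4 of 5 were found in replicate 1, against 2 of 8 at MTAP. The 4 peaks of replicate 1 in TSC1 lay 31.3 to 54 kb from the start site, and 1 of them overlapped an untranslated region. The UM-UC-3 shared peak with the highest scores, chr9:135775436-135775679, had 5.19 and 5.16 and overlapped an exon of a non-coding transcript.

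TSC1 also held the only site in the 7 genes that was called in both cell lines. RT112 replicate 1 had a peak at chr9:135794661-135794979 with a score of 10.1, and replicate 2 at the same start with 4.27. UM-UC-3 replicate 2 had a peak at chr9:135794661-135794946 with a score of 9.6, and UM-UC-3 replicate 1 had none there. The site lies in an intron, 27.4 kb from the start site, and has a GC content of 37.6%. The 300 bases chr9:135794661-135794960 are shown on the plus strand because 3 of 4 libraries called them; capitals mark a purine run of 11 bases.
TSC1 intron peak: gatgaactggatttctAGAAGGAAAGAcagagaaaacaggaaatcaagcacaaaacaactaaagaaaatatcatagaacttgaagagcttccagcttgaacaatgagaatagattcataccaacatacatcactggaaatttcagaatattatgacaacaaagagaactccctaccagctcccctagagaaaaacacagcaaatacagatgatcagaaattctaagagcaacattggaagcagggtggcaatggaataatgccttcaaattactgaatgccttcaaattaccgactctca

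The peak-free stretch over TSC1 was short in both lines, 40.21 kb in RT112 and 49.88 kb in UM-UC-3. Stretches as long overlapped 81.6% and 55.5% of genes of like length. The surrounding 2 Mb on both sides were sparse in all libraries: the relative density was 0.699 ± 0.0429 in RT112 against 0.596 ± 0.0177 in UM-UC-3 (SD, n = 2 each; difference -0.103, two-sided exact permutation p = 0.333). Empty bins made up 34.1% and 39% of 41 bins in RT112 against 17.1% and 12.2% in UM-UC-3. The bins without peaks were scattered, with a longest run of 2 and 3 in RT112 against 3 and 1 in UM-UC-3, unlike the run of 17 at 9p21.

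ATAD1 (chr10:89511269-89601118, minus strand) had a single peak in the 4 libraries, chr10:89579626-89579860 in RT112 replicate 2 with a score of 5.29, in an intron and upstream of the canonical transcript (chr10:89511269-89577983). The counts were thus 0 and 1 in RT112 against 0 and 0 in UM-UC-3. This was few for its length, as 71.4% of 1788 genes of like length had a peak in each RT112 library and 89.7% in each UM-UC-3 library. The nearest UM-UC-3 peaks were 15.9 and 14.1 kb away. The longest peak-free stretch was 106.6 kb in RT112 (174.7 and 106.6 kb in the replicates) and 119.8 kb in UM-UC-3 (143.1 and 124.7 kb), where ATAD1 lay wholly inside. In UM-UC-3, 1.53% of windows of that length were empty and 10.9% of genes of like length overlapped a stretch as long; in RT112 the shares were 4.58% and 25.3%. The relative density around 10q23 was 0.983 ± 0.023 in RT112 against 0.967 ± 0.0671 in UM-UC-3 (SD, n = 2 each), a difference of -0.0159, smaller than either SD (exact permutation test, two-sided p = 1). PAPSS2, a sulfate donor synthase gene next to ATAD1, reached into the stretch of both lines.

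**Figure D4:**
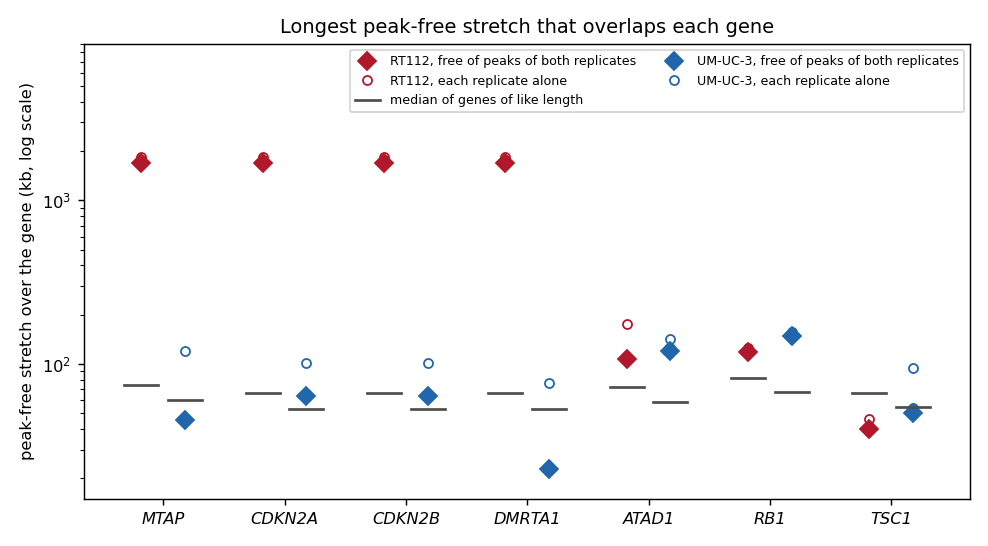
Longest peak-free stretch that overlaps each gene (vertical axis, kb on a log scale) in RT112 and UM-UC-3; diamonds are free of peaks of both replicates, open circles of 1 replicate alone, and lines give the median of genes of like length. The 4 genes at 9p21 share a stretch of 1690 kb in RT112, whereas all other values for both replicates together lie between 22.98 and 147.3 kb.

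**Figure D5:**
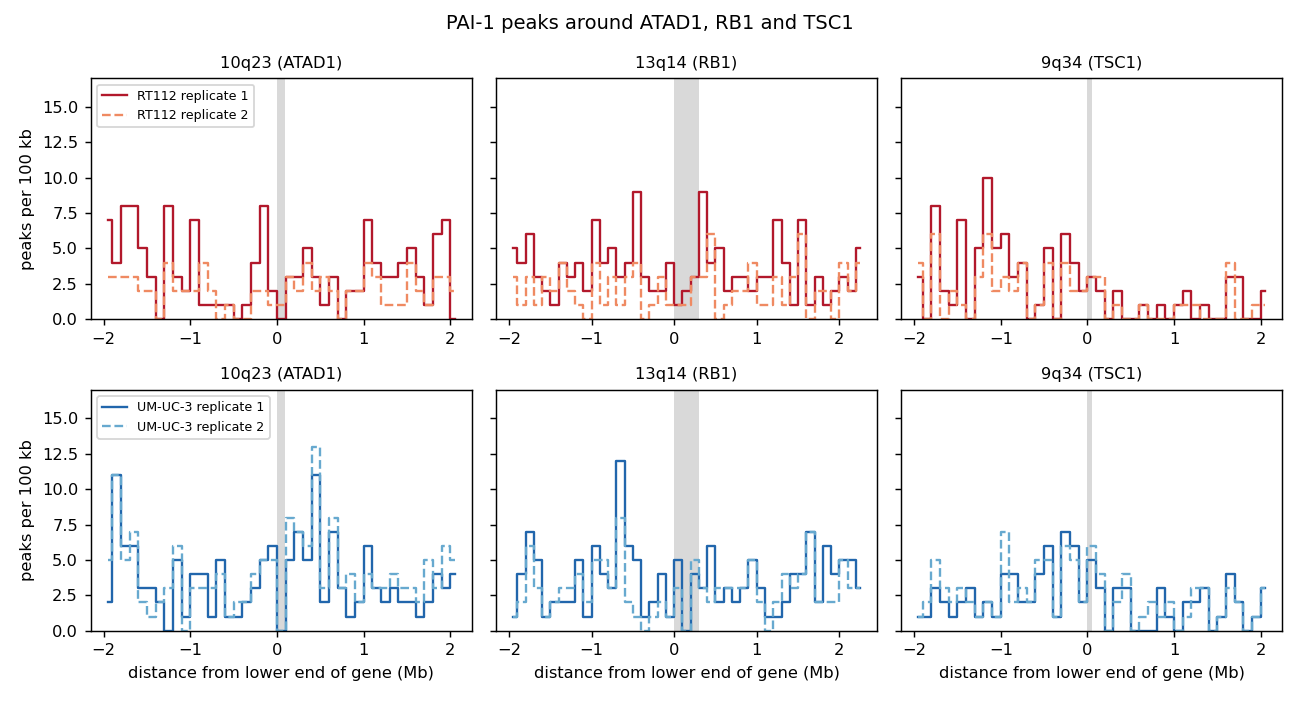
Peaks per 100 kb bin (vertical axis) against the distance in Mb from the lower end of ATAD1, RB1 and TSC1 (horizontal axis; grey, the gene), with RT112 above and UM-UC-3 below; solid lines are replicate 1 and dashed lines replicate 2. No locus has a run of more than 3 empty bins.

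The 51 peaks in the 7 genes were 211 to 471 bp wide. In the full gene models, which reach past some canonical transcripts, 46 of them were intronic. Of the rest, 1 overlapped a coding exon, 2 an untranslated region and 2 a non-coding exon. Median purine or pyrimidine runs of 10 to 12 bases per library were close to the 11 bases of all peaks. Their GC content ranged from 24.2% to 55.9%. Their median score was 3.8 and 3.62 in RT112 replicates 1 and 2, beside 3.8 and 4.09 for all peaks of those libraries. In UM-UC-3 it was 2.64 and 5.16, beside 3.88 and 3.85. The other replicate had an overlapping peak for 32 of 51, by library for 71.4%, 62.5%, 73.3% and 52.4%, beside 38.2%, 61.3%, 74.9% and 71.7% of all peaks in the same order. The other cell line had one for 3 of 51, all at the TSC1 site. A score of at least 10 was reached by 7 peaks, 1 in TSC1 and the others in the part of the RB1 model beyond its canonical transcript.

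Other genes of the neighbourhood and pathways were described by lists. Of 23 protein-coding neighbours at 9p21, from MLLT3 to TUSC1, 0 overlapped a stretch of 500 kb in either line, and their median stretch was 47.2 kb in RT112 and 37.2 kb in UM-UC-3, against 69.2 and 56.2 kb for all genes. FOCAD, a focal adhesion protein gene, had most peaks, 8 and 5 in RT112 against 19 and 25 in UM-UC-3, followed by MLLT3, a subunit of the super elongation complex, with 7 and 5 and with 9 and 12. The RT112 stretch did not extend to any listed neighbour, which restates its ends given above. Of the 23 neighbours, 4 had a peak in each RT112 library and 3 in each UM-UC-3 library. The shares of all protein-coding genes were 36.8% and 48.8%. Many of the neighbours are short, and short genes hold fewer peaks.

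Of 22 genes of the RB pathway, which covers the RB1 relatives, E2F factors, cyclins and cyclin-dependent kinases and their inhibitors, 6 had a peak in each RT112 library and 9 in each UM-UC-3 library, beside 36.8% and 48.8% of all protein-coding genes, and 0 lay in a long stretch in either. CDK6, the kinase that p16INK4a and p15INK4b inhibit, had 7 and 3 peaks in RT112 against 12 and 12 in UM-UC-3. CDK4, its close relative, had 1 and 1 in RT112 against 0 and 0 in UM-UC-3. After CDK6, RBL1 and E2F3 had most peaks in RT112. RBL1 had 4 and 4 in RT112 against 1 and 2 in UM-UC-3, and E2F3 had 4 and 4 against 5 and 1. CCND3 came next in UM-UC-3, with 3 and 4 against 2 and 2 in RT112.

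Of 17 genes of the TSC and mTORC1 pathway, 4 had a peak in each RT112 library and 11 in each UM-UC-3 library, beside the same 36.8% and 48.8% of all genes. TSC2, the partner of TSC1, and MLST8, an mTOR subunit, lay in the same RT112 stretch of 508.8 kb, chr16:1799299-2308119, and were the only 2 of the 17 in a stretch of at least 500 kb. UM-UC-3 had 4 and 4 peaks there, 0.2 of its average, and its own stretch over TSC2 was 304.3 kb, so both lines were sparse at TSC2. RPTOR had most peaks on this list, 13 and 7 in RT112 against 12 and 12 in UM-UC-3. DEPTOR had 11 and 3 against 10 and 12, and DEPDC5 9 and 3 against 12 and 11. Of 12 genes of methionine salvage and related steps, 1 and 3 had a peak in both replicates of RT112 and UM-UC-3 (all genes, 36.8% and 48.8%), and 0 lay in a long stretch. The longest of the 12 was 63.3 kb, and short genes hold fewer peaks. APIP had most peaks in RT112, 3 and 2, with 3 and 2 in UM-UC-3 as well. SMS had most in UM-UC-3, 4 and 2, against 1 and 0 in RT112. PRMT5, the arginine methyltransferase that is inhibited by the metabolite MTAP removes, had 0 peaks in all 4 libraries.

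Of 12 other genes often lost in bladder cancer or at fragile sites, 9 matched a protein-coding gene model, and all 9 had a peak in both replicates of both lines (all genes, 36.8% and 48.8%). They are 74.1 to 2299 kb long, and among genes as long as the long RB1 model 98.8% and 99.8% had such peaks. LRP1B, a lipoprotein receptor gene at a fragile site, was the only one with a long stretch, chr2:141019063-141585783 in UM-UC-3 (566.7 kb), which held 4 and 4 RT112 peaks, 0.27 of the RT112 average. PTPRD, a phosphatase gene on the same chromosome arm as CDKN2A, had 48 and 24 peaks in RT112 against 96 and 94 in UM-UC-3, and its longest RT112 stretch was 179.8 kb. PTPRD (chr9:8314246-10613002) lies outside the RT112 stretch at 9p21, so its peaks do not bear on the extent of that stretch. WWOX had most peaks in RT112, 65 and 36, against 42 and 41 in UM-UC-3. FHIT had 36 and 16 in RT112 against 55 and 56 in UM-UC-3.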

How the data were processed

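ChIP-seq peak lists of 4 libraries were used. According to the methods and the submitters' processing notes, the authors trimmed reads (Trimmomatic), mapped them to hg19 with Bowtie 1.1.1, removed duplicates with Picard and called peaks with MACS2 2.1.0.20140616. Use of the input as control and pooling are not given in the sources used here. A false discovery rate limit is named for bound probe sets in a legend, but not for these lists. The deposited score is a -log10 p-value or q-value; which of them is not stated. Read counts are absent from the lists. The methods state a mean read number over samples and none for single libraries, whose depth and counting error are therefore unknown.

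Lines with identical ends were counted once. Chromosomes 1 to 22 and X were used, with GENCODE 44 genes on GRCh37. A stretch ended at a peak or at an assembly gap of 10 kb or more, and windows of its length were tiled end to end. Overlap meant at least 1 bp. Bins took peaks by their midpoints. Density was divided by the library average. Python 3.11.15, numpy 2.4.6, pandas 2.3.3, pysam 0.24.0 and matplotlib 3.10.9 were used, and the steps were tested on simulated data. Named peaks had the highest scores among those found in both replicates. Named genes were the members and the genes in or next to a stretch at 9p21 and in the other stretches. Of each list, the genes in a long stretch and some of those with most peaks were also named. CDK4, PRMT5 and STK11, the peak next to DMRTA1, the RT112 peak in the canonical RB1 transcript and the RB1 peak with the long run were chosen after values were seen. The members and lists were chosen with earlier results of these data known. An item that the same choice covered is not reported here. Alternatives were a score of at least 5, equal peak numbers, shared peaks, other flanks and each library left out.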

Additional observations from a re-analysis of the deposited data

How the results depend on the processing

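The number of the 7 genes in a long peak-free stretch, 4 in RT112 and 0 in UM-UC-3, did not change under any alternative run, including limits of 250 and 1000 kb. Apart from the limit of 1000 kb, these settings remove peaks, join stretches or lower the limit. Under them the counts could rise but not fall, so only the limit of 1000 kb could have lowered the count of 4. The RT112 stretch over CDKN2A grew from 1690 kb to 2203 kb with peaks of a score of at least 5, 1846 kb with equal peak numbers, 1925 kb with shared peaks and 1846 kb with 1 peak region allowed inside; with 1 library left out it was 1754 to 1846 kb. The UM-UC-3 stretch over CDKN2A (63.65 kb) became 128.3, 128.3, 131.2 and 99.58 kb under the same 4 settings, and 63.65 to 101.4 kb with 1 library left out. With a score of at least 5, UM-UC-3 replicate 1 had a peak in 2 of the 7 genes instead of 4. Counted over canonical transcripts, an alternative added after the data were seen, the 4 libraries had 2, 2, 3 and 3 such genes instead of 2, 3, 4 and 4.

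The density difference at 9p21 (0.509) was 0.423 with a score of at least 5, 0.354 with equal peak numbers, 0.852 with 1 Mb on both sides and 0.379 with 5 Mb. At 10q23 (-0.0159) it was 0.317 with equal peak numbers and 0.205 with 1 Mb. At 13q14 (-0.21) it was 0.017 with a score of at least 5, -0.0384 with equal peak numbers and 3.72 peaks per Mb without division by the library average. At 9q34 (-0.103) it was -0.186 with a score of at least 5, -0.0353 with equal peak numbers, -0.218 with shared peaks, 4.37 peaks per Mb undivided, 0.0678 with 1 Mb and -0.0391 with 5 Mb. The sign at 10q23, 13q14 and 9q34 thus depended on the setting, and that at 9p21 did not; the cause was not tested. Of the other values, 52 moved by more than the replicate SD, all of them stretch lengths of single genes, and 32 did not.

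With the replicate number as a replicate block the differences stayed at 0.509, -0.0159, -0.21 and -0.103, since the mean of paired differences equals the difference of means, and the smallest paired p is 0.5. The numbers are not known to pair libraries: over 2737 windows of 1 Mb the deviations of same-numbered libraries correlated at 0.00124 (description only). Without read depth or copy number, lost DNA and intact DNA without a called peak cannot be told apart here.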

Other observations

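Long peak-free stretches away from the 7 genes differed in gene content. Some overlapped many genes: in RT112, chr11:258131-951773 (693.6 kb) overlapped 39 protein-coding genes and held 3 and 6 UM-UC-3 peaks, and chr19:428796-967602 (538.8 kb) overlapped 25 genes and held 4 and 1. In UM-UC-3, chr16:1134730-1769177 (634.4 kb) overlapped 23 genes and held 2 and 2 RT112 peaks. Others overlapped few: in RT112, chr5:68765481-69379104 (613.6 kb) overlapped 4 genes and held 4 and 3 UM-UC-3 peaks. The stretch at 9p21 overlapped 4 protein-coding genes. STK11, which encodes a kinase upstream of TSC1 and TSC2 and is on the TSC and mTORC1 list, had peak-free stretches of 393.8 and 380.6 kb in RT112 and UM-UC-3, with 0 and 0 peaks in RT112 against 1 and 1 in UM-UC-3.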
